A study of Mus musculus with 18 samples.

Results

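GABAergic interneurons are the inhibitory neurons of the hippocampus, and 10 genes that mark them are described here: Gad1, Gad2, Slc32a1, Sst, Npy, Vip, Cck, Pvalb, Calb2 and Reln. They were taken by gene symbol from 3 tables of read counts made from polyadenylated hippocampal RNA of C57BL/6 mice. All 10 are among the 10541 genes of the miR-132/212 deletion table and the 10799 genes of the miR-132 table. Of the 4618 gene symbols of the miR-212 table, 7 are members, and Npy, Vip and Pvalb are not analysed there. The study asked how loss or gain of the microRNAs miR-132 and miR-212 changes hippocampal transcripts.

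The first group was miR132/212 cKO (genotype CaMKII-Cre::miR-132/212f/f), in which Cre under the CaMKII promoter deletes both floxed microRNA genes. That promoter is known for excitatory forebrain neurons, so interneurons are not the cells at which the deletion is directed. The other groups carried the tetracycline transactivator tTA with a transgene, as tTA::miR132 or tTA::miR212. The promoter of tTA, the cells in which it acts and the ages of the mice are not stated. Each group was set against nontransgenic controls of its own, which carry neither Cre nor tTA, so an effect of the driver and of the microRNA cannot be told apart. The cDNA of 6 animals was pooled into 3 replicates per group. The deletion and miR-132 tables hold 2 libraries per group and the miR-212 table has 3 per group. They make 14 libraries, each numbered as in its column name, and p-values measure the spread between these libraries.

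An interneuron makes GABA from glutamate with the decarboxylases encoded by Gad1 (GAD67, found through the whole cell) and Gad2 (GAD65, at nerve endings). Slc32a1 encodes the transporter VGAT, which loads GABA into vesicles, so these 3 genes serve nearly all GABAergic cells. The other 7 mark subtypes. The peptide genes Sst (somatostatin), Npy (neuropeptide Y), Vip (vasoactive intestinal peptide) and Cck (cholecystokinin) mark cells that contact dendrites, other interneurons or cell bodies. Pvalb and Calb2 encode the calcium-binding proteins parvalbumin, of fast-spiking basket and axo-axonic cells, and calretinin. Reln encodes reelin, a secreted matrix protein of neurogliaform and other interneurons. Several of these transcripts are not exclusive to interneurons: pyramidal cells also make Cck, Cajal-Retzius cells make Reln and Calb2, mouse hilar mossy cells and thalamus make Calb2. In bulk RNA, fewer cells of a type and less RNA per cell cannot be told apart.

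The 2 microRNAs are shown because their seed, bases 2 to 8 in capitals, is the letters by which they pair with messages. Both mature sequences are from RefSeq (GRCm38.p6, plus strand), at chr11:75173723-75173744 for miR-132-3p and chr11:75173443-75173464 for miR-212-3p.
miR-132-3p: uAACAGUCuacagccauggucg
miR-212-3p: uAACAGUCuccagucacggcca
The seed AACAGUC is the same in both. Its complement was searched in the longest annotated 3′ UTR of each gene (GENCODE vM1, mm9) as GACTGTT, or as ACTGTTA where only bases 2 to 7 pair and an A follows. None of the 10 members held either string. Of 19915 genes with an annotated 3′ UTR, 10.0% held the first and 16.3% held at least one. The members' UTRs ran from 148 bases in Sst and 180 in Npy to 3528 in Gad2, against a median of 893 over all genes. The absence of these letters says nothing about other kinds of pairing.

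The promoters of Sst and Vip are shown because both peptide genes are known for a cAMP response element, the DNA element that CREB binds and that also drives the miR-132/212 locus in neurons. For all members but Calb2, the 300 bases around each start site (RefSeq, GRCm38.p6) were searched on both strands for the full palindrome TGACGTCA and for the shorter TGACG, which the palindrome contains. The 100 bases before the start site are printed, with matches in capitals, for Sst (chr16:23890845-23890944, minus strand) and Vip (chr10:5639118-5639217, plus strand in this build and minus in mm9).
Sst: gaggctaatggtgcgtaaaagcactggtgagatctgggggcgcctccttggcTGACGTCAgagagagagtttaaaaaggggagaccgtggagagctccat
Vip: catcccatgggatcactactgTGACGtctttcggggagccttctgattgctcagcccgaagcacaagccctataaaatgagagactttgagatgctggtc
Of the members searched only Sst had the full element, which 1.79% of 32851 promoters held. Besides Sst and Vip, the shorter string was found in Cck and Gad2, and 20.8% of promoters held it. Gad1, Slc32a1, Reln, Npy and Pvalb had neither string in this window.

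The deletion and miR-132 libraries held 8190899 to 14772907 counts each. The miR-212 libraries held 1299369 to 1544923, with the transcript of highest mean count kept per symbol. Values below are CPM (counts per 1000000 counts of the library) of these totals unless said otherwise. The libraries were not equally complete: cKO library 1 had 1047 of 10541 genes at 0, against 73 to 120 in the other libraries of its table. In the miR-132 table, control library 2 had 485 genes at 0, against 92 to 262 in the others. The miR-212 libraries had at most 1, but their table lists only 4618 symbols, so its counts of 0 do not compare directly with those of the other tables. The biological coefficient of variation, the spread between replicate libraries beyond counting error, was 74.2% in the deletion table, 60.7% in the miR-132 table and 8.58% in the miR-212 table. In mm9 Pvalb lies at chr15:78021544-78036830, Calb2 at chr8:112661402-112692110, Reln at chr5:21390272-21850523 and Sst at chr16:23889667-23890930, all on the minus strand. The tissue label was checked by 8 excitatory neuron markers such as Slc17a7 and Camk2a, which summed to 2548 to 3361 CPM in the deletion and miR-132 libraries with no marker at 0. In the miR-212 libraries 6 of these markers summed to 7061 to 7673 CPM. Markers of hippocampal fields other than Calb2, 8 genes, summed to 1019 and 694 CPM in cKO libraries, against 693 and 710 CPM in their controls, and Prox1, of dentate granule cells, was at 0 in cKO library 1, against 170 to 510 counts in the other libraries of that table. In the miR-132 and miR-212 libraries no gene of that list was at 0.

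Compared per kilobase of the longest annotated protein-coding transcript, Sst stood first among the markers in all 3 sets of controls and Cck next. In controls of the deletion table, the mean was 900 CPM per kb for Sst (786 and 1014 in the 2 libraries) and 612 for Cck (489 and 735), which did not overlap. Gad1 followed with 229 CPM per kb and Npy with 195, and their ranges did not overlap either. Pvalb with 52.3, Gad2 with 49.5, Calb2 with 46.1 and Vip with 44.4 CPM per kb had overlapping ranges and cannot be ordered. Slc32a1 with 16.3 and Reln with 4.02 CPM per kb came last, Reln having the longest transcript of the set at 11.7 kb. By their means, controls of the miR-132 table began with the same 4 genes, at 767, 505, 202 and 181 CPM per kb, and ended with Slc32a1 at 12.05 and Reln at 5.15. In these controls Gad1 (192 to 212) and Npy (162 to 200) overlapped, and the range of Calb2 (1.94 to 32.0) covered those of Slc32a1 and Reln. Controls of the miR-212 table, counted over Ensembl transcripts, had Sst at 461, Cck at 431, Gad1 at 90.6, Slc32a1 at 64.8, Gad2 at 32.3, Calb2 at 21.0 and Reln at 12.2 CPM per kb. There Sst (430 to 483) and Cck (408 to 444) overlapped, and Slc32a1 lay above Gad2, the opposite of its place in the other tables.

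**Figure D1:**
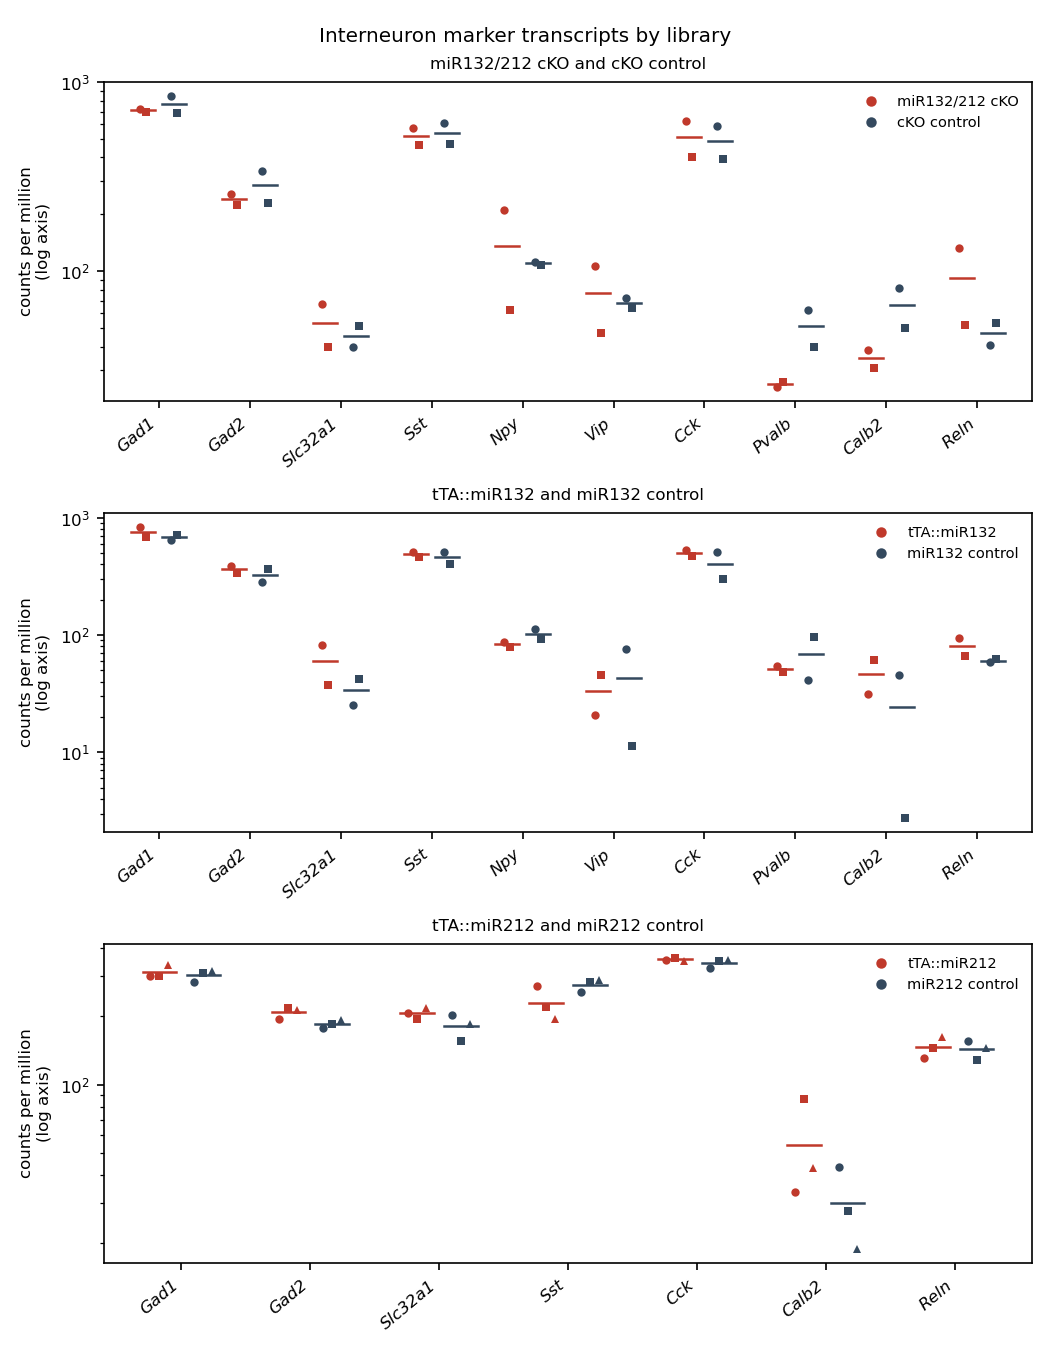
Level in CPM (vertical log axis) of each marker in every library of the 3 tables, transgenic or deleted libraries in red left of their controls in dark blue; circles, squares and triangles are libraries 1, 2 and 3, and bars are group means. Gad1 and Sst differ by at most 1.29-fold between libraries of a group in the deletion and miR-132 tables, while Calb2 in the miR-132 controls spans 45.8 to 2.77 CPM.

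Loss of miR-132 and miR-212 was examined first. The genes of GABA synthesis and loading and the abundant peptide gene Sst had overlapping groups, and no marker passed the test over all genes (edgeR quasi-likelihood test, Benjamini-Hochberg adjusted p = 0.999 for each of the 10). The lowest fold changes were those of the calcium-binding protein genes Pvalb and Calb2, and the highest was that of Reln. Each is given below with its values. The same test called 0 of 10487 genes (percent called 0), with 0.534% higher and 0.305% lower at an unadjusted p under 0.05, where no marker stood. DESeq2 called 12 genes and limma-voom 0, with no marker among them.

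Gad1 had 724 and 693 CPM in cKO libraries 1 and 2, against 845 and 691 CPM in controls. Gad2 had 256 and 224 CPM in cKO libraries, against 338 and 231 CPM in controls. For both genes control library 1 was high and the other 3 libraries lay together, so the groups overlapped. The log2 fold changes were -0.09 (SE 0.19, 95% interval -0.56 to 0.38) for Gad1 and -0.22 (SE 0.28, interval -0.91 to 0.47) for Gad2. Slc32a1 had 67.1 and 39.8 CPM in cKO libraries, against 39.6 and 51.3 CPM in controls, so that cKO library 2 was inside the range of the controls (log2 fold change 0.27, SE 0.53).

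Sst had 572 and 463 CPM in cKO libraries, against 607 and 471 CPM in controls. Library 1 was the higher one in both groups, and the groups overlapped. Its log2 fold change of -0.03 (SE 0.24) had an interval of -0.61 to 0.55. Cck showed the same split between libraries 1 and 2, with 621 and 400 CPM in cKO libraries, against 587 and 390 CPM in controls (log2 fold change 0.10, SE 0.32).

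Npy, which in the hippocampus marks neurogliaform, ivy and many somatostatin cells, had 211 and 62.1 CPM in cKO libraries, against 112 and 108 CPM in controls. The controls agreed closely, and the cKO libraries lay on either side of them. Vip, of interneurons that mostly contact other interneurons, had the same pattern, with 106 and 47.4 CPM in cKO libraries, against 71.9 and 63.7 CPM in controls. Reln had 132.1 and 51.9 CPM in cKO libraries, against 40.6 and 53.5 CPM in controls, so that only cKO library 1 stood apart. The log2 fold changes were 0.35 (SE 0.59) for Npy, 0.22 (SE 0.51) for Vip and 1.01 (SE 0.57, unadjusted p = 0.128) for Reln by edgeR's quasi-likelihood test. All 3 high values came from cKO library 1, the library with 9.93% of genes at 0.

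With cKO library 1 alone against the controls, Npy had a log2 fold change of 1.00 (edgeR adjusted p = 0.00199) and Reln of 1.56 (edgeR adjusted p = 1e-04). In that fit 4527 genes were called, and the lone library is assumed to vary like the controls. Over the other alternatives the adjusted p was 0.584 or higher for Npy and 0.675 or higher for Reln. With cKO library 2 alone, Npy had a log2 fold change of -0.84, Vip of -0.53 and Reln of 0.13, and none of these was called.

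Pvalb and Calb2 were the 2 markers with both cKO libraries below both controls. Pvalb had 24.6 and 26.0 CPM in cKO libraries, against 62.4 and 39.7 CPM in controls. Calb2 had 38.5 and 30.9 CPM in cKO libraries, against 81.5 and 50.4 CPM in controls. The groups did not overlap for either gene, and control library 1 was the highest. The log2 fold changes were -0.99 (SE 0.57, interval -2.39 to 0.40) for Pvalb and -0.90 (SE 0.52, interval -2.17 to 0.37) for Calb2. Such a separation, all cKO below all controls, was met by 18.0% of all genes tested, and the reverse by 14.3%. The share of markers, 2 of 10 below and 0 of 10 above, was near that background.

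Leaving out 1 library at a time kept Pvalb between -1.28 and -0.63 and Calb2 between -1.20 and -0.51 (log2 fold change), the values nearest to 0 being those without control library 1. Relative to the summed count of Gad1, Gad2 and Slc32a1 in the same library, Pvalb differed by -0.85 and Calb2 by -0.77 on the log2 scale, both lower in cKO libraries, and each had an exact permutation p of 0.333 (two-sided), the smallest that 2 against 2 libraries allow. Thalamus and habenula, which neighbour the hippocampus, have a marker list that includes Calb2. Its other 4 measured genes summed to 60.6 and 154.6 CPM in cKO libraries, against 165.7 and 146.6 CPM in controls, so the groups overlapped. Ntng1, the most abundant of them, had 44.9 and 111 CPM in cKO libraries, against 66.5 and 91.2 CPM in controls, and overlapped as well. Prkcd, a thalamic kinase gene, had 15.7 and 24.2 CPM in cKO libraries, against 54.8 and 29.3 CPM in controls. Tcf7l2 had 0 and 10.5 CPM in cKO libraries, against 30.2 and 16.6 CPM in controls. Tac2 had 0 and 8.55 CPM in cKO libraries, against 14.2 and 9.52 CPM in controls. For Prkcd, Tcf7l2 and Tac2 both cKO libraries were thus below both controls, as for Calb2 and for 18.0% of all genes tested. Choroid plexus markers also differed, at 507 and 1746 CPM in cKO libraries, against 4458 and 4963 CPM in controls. The part of this tissue composition in the values of Pvalb and Calb2 was not tested.

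In the authors' deposited table for this comparison, 4 markers have a q-value under 0.05, namely Npy (4.92e-16), Pvalb (3.28e-07), Vip (2.52e-06) and Calb2 (6.13e-05), while 54.3% of all its genes do. Npy and Vip are 2 of those in which the cKO libraries lay on opposite sides of the controls. Over the 10 markers 5 fold changes were above 0 and 5 below, with a median log2 fold change of 0.03, against -0.03 over all genes.

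**Figure D2:**
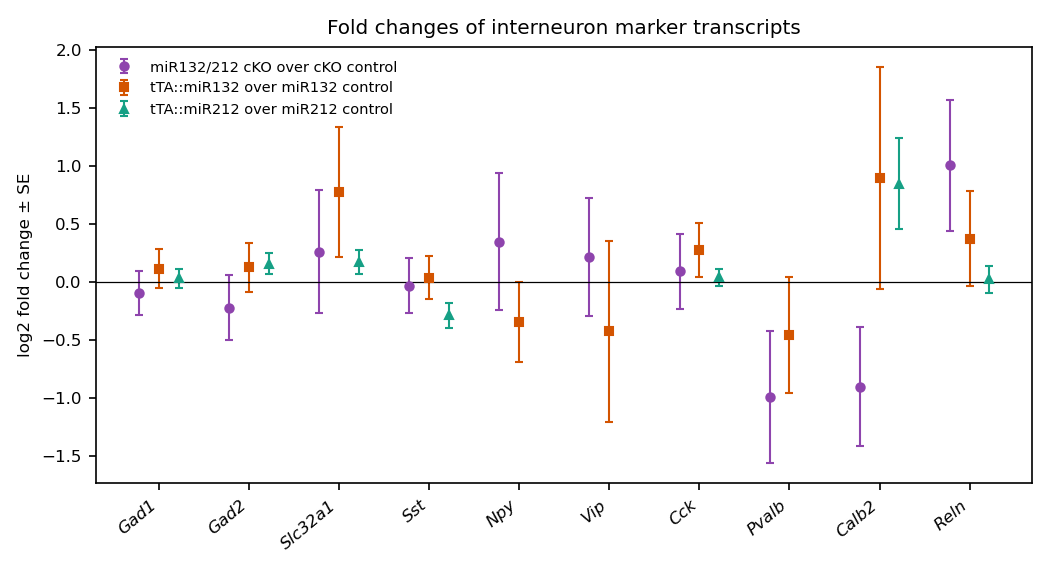
Log2 fold change with its standard error (vertical axis, edgeR) of each marker in the deletion (circles), miR-132 (squares) and miR-212 (triangles) comparisons, each over its own controls. The standard errors of the miR-212 comparison, 0.08 to 0.39, are the shortest for Gad1, Gad2, Slc32a1, Sst, Calb2, Cck and Reln.

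Raised miR-132 was examined next. No marker passed the test over all genes in tTA::miR132 libraries (edgeR, adjusted p of 0.997 or 0.999), as did 0 of 10734 genes, with 0.988% higher and 1.84% lower at an unadjusted p under 0.05 and no marker among them. DESeq2 called 43 genes and limma-voom 2, again with no marker. Fold changes of Gad1, Gad2, Sst and Cck were 0.04 to 0.28 on the log2 scale. The largest fold changes belonged to Calb2 and Slc32a1, and both rested on single libraries.

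Gad1 had 831 and 683 CPM in tTA::miR132 libraries, against 644 and 711 CPM in controls (log2 fold change 0.12, SE 0.17, interval -0.25 to 0.48). Gad2 had 389 and 336 CPM in tTA::miR132 libraries, against 280 and 363 CPM in controls (0.13, SE 0.21). The groups overlapped for both. Slc32a1 had 82.3 and 37.0 CPM in tTA::miR132 libraries, against 25.4 and 42.0 CPM in controls, so only tTA::miR132 library 1, the deepest of the series, stood above the controls. Its log2 fold change was 0.78 (SE 0.56) and 0.08 without that library.

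Sst had 511 and 461 CPM in tTA::miR132 libraries, against 513 and 405 CPM in controls, a log2 fold change of 0.04 (SE 0.18) with an interval of -0.36 to 0.44. Cck had 528 and 475 CPM in tTA::miR132 libraries, against 508 and 298 CPM in controls (0.28, SE 0.23), where control library 2 was the low one. Npy had 86.9 and 79.1 CPM in tTA::miR132 libraries, against 113 and 91.7 CPM in controls. Here both transgenic libraries were below both controls, by a log2 fold change of -0.34 (SE 0.35). Reln was the 1 marker with both transgenic libraries above both controls, at 94.4 and 66.6 CPM in tTA::miR132 libraries, against 58.2 and 62.3 CPM in controls (0.38, SE 0.41). Without tTA::miR132 library 1 its log2 fold change was 0.09. Of all genes, 18.8% were separated upward and 14.3% downward in this way, so 1 of 10 markers in each direction is not above the background.

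Control library 2 was the lowest library of the table for Sst, Cck, Calb2 and Vip, and furthest below the other control for Calb2 and Vip. Calb2 had 31.2 and 61.2 CPM in tTA::miR132 libraries, against 45.8 and 2.77 CPM in controls. The last value is 23 counts, with an exact Poisson interval of 1.76 to 4.16 CPM that covers counting error only, and it was 16.5-fold below the other control. Among the 4607 genes whose mean in the other 3 libraries was within 2-fold of that of Calb2, 1.58% were as low or lower in control library 2, against 0.022% to 0.154% for the same count in each of the other libraries. Vip had 20.6 and 45.4 CPM in tTA::miR132 libraries, against 75.2 and 11.3 CPM in controls, a gap of 6.64-fold between the controls. The log2 fold changes were 0.90 (SE 0.96) for Calb2 and -0.42 (SE 0.78) for Vip. Without control library 2 they were -0.00 for Calb2 and -1.21 for Vip, and without control library 1 they were 3.98 and 1.47.

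The Cajal-Retzius list holds Reln and Calb2, and its other 3 measured genes summed to 29.4 and 25.4 CPM in tTA::miR132 libraries, against 17.1 and 6.26 CPM in controls. Of these, Trp73 and Ebf3 were at 0 in control library 2, while Nhlh2 went the other way, with 0.474 and 1.25 CPM in tTA::miR132 libraries, against 11.0 and 6.26 CPM in controls. The 5 thalamus and habenula genes other than Calb2 summed to 115 and 121 CPM in tTA::miR132 libraries, against 138 and 262.0 CPM in controls, with control library 2 the highest although its Calb2 was the lowest. The part of either in the value of Calb2 was not tested. Pvalb had 54.8 and 48.6 CPM in tTA::miR132 libraries, against 41.5 and 95.2 CPM in controls, with the controls on either side (-0.45, SE 0.50).

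In the authors' deposited table for tTA::miR132, 7 of the 10 markers have a q-value under 0.05, as do 53.1% of all genes. The lowest are those of Vip (1.40e-07) and Calb2 (3.48e-06), the 2 markers whose controls disagreed most. Of the 10 fold changes 7 were above 0 and 3 below, and their median of 0.12 (log2) stood beside -0.00 for all genes.

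**Figure D3:**
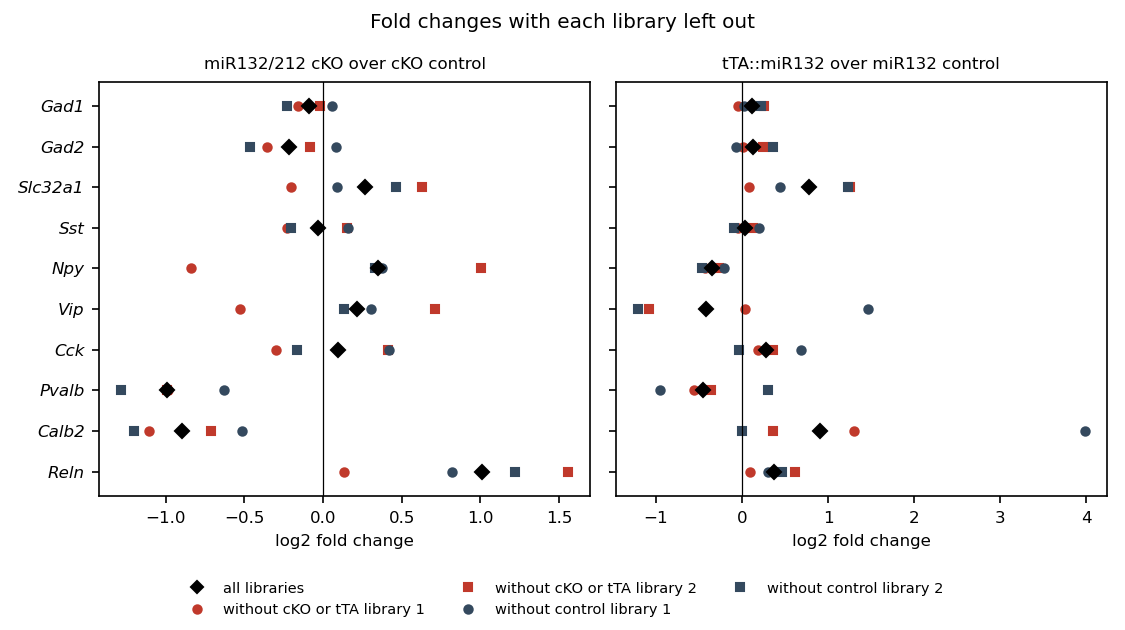
Log2 fold change (horizontal axis) of each marker with all libraries (black diamonds) and with each library left out in turn, red for a cKO or tTA library and dark blue for a control, circles for library 1 and squares for library 2. In the deletion comparison (left) Npy runs from -0.84 to 1.00, and in the miR-132 comparison (right) Calb2 runs from -0.00 to 3.98, while Gad1 and Sst stay close to 0.

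Raised miR-212 gave the smallest standard errors for the markers tested there. Its libraries also had the lowest biological coefficient of variation (8.58%), with 3 libraries per group and a table of only 4618 symbols. The parts of these in the precision were not told apart. No marker passed the test over all genes in tTA::miR212 libraries, as did 0 of 4618 genes. At an unadjusted p under 0.05, where 2.49% of genes stood higher and 3.14% lower, Calb2 was among the higher and Sst among the lower. DESeq2 and limma-voom also called 0 genes.

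Sst had 272, 221 and 195 CPM in tTA::miR212 libraries 1, 2 and 3, against 257, 282 and 289 CPM in controls. Libraries 2 and 3 were below all controls and library 1 was inside their range. The means were 229 ± 39.4 CPM in tTA::miR212 libraries and 276 ± 16.8 CPM in controls (SD, n = 3 each). The log2 fold change was -0.28 (SE 0.11, interval -0.52 to -0.05), with an unadjusted p of 0.019 and an adjusted p of 0.818 by edgeR. It lay between -0.42 without tTA::miR212 library 1 and -0.18 without library 3, and 0 of these fits called it.

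Set against the pan-GABAergic genes of the same library, Sst was lower in all 3 tTA::miR212 libraries than in any control. Library 1 was so only just, at -1.368 against -1.366 in control library 1. By CPM the groups overlapped, and the share of all genes separated by such a ratio was not computed. The log2 ratios to the sum of Gad1, Gad2 and Slc32a1 were -1.37, -1.70 and -1.98 in tTA::miR212 libraries, against -1.37, -1.20 and -1.27 in controls. The difference was -0.40, or -0.45 with Gad2 alone as the base. It was -0.25 without tTA::miR212 library 3 and -0.56 without library 1. By CPM, Gad1, Gad2 and Slc32a1 had log2 fold changes of 0.04, 0.16 and 0.18, none called, beside -0.28 for Sst. The ratio thus holds differences in its base as well as in Sst. With all libraries, each base gave an exact permutation p of 0.1 (two-sided), the smallest that 3 against 3 libraries allow, so this design cannot take the ratio below 0.05.

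Calb2 was the least counted marker of this table, with 25 to 133 counts a library. Its level was 33.7, 86.1 and 42.8 CPM in tTA::miR212 libraries, against 43.4, 27.7 and 18.9 CPM in controls. Only tTA::miR212 library 2 stood above all controls. The log2 fold change of 0.85 (SE 0.39, unadjusted p = 0.046, adjusted p = 0.876 by edgeR) was 0.35 without that library. In the same library Prkcd, the other thalamic gene of the table, was also the highest, at 25.3, 81.6 and 31.4 CPM in tTA::miR212 libraries, against 29.4, 23.9 and 22.7 CPM in controls, and 2 choroid plexus markers summed to 47.9 CPM, against 282 to 852 CPM in the other libraries. The part of tissue composition in the value of Calb2 was not tested. Relative to the pan-GABAergic sum Calb2 differed by 0.69 on the log2 scale (exact permutation p = 0.4, two-sided).

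Gad2 had 194, 217 and 213 CPM in tTA::miR212 libraries, against 178, 185 and 192 CPM in controls. It was the 1 marker of 7 with all tTA::miR212 libraries above all controls, a pattern of 6.47% of genes (4.96% had all below). Its log2 fold change was 0.16 (SE 0.09, interval -0.03 to 0.35). Slc32a1 had 206, 195 and 217 CPM in tTA::miR212 libraries, against 202, 155 and 186 CPM in controls (0.18, SE 0.10), and the groups overlapped through control library 1. Without control library 2 its log2 fold change was 0.08.

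Gad1, Cck and Reln had the fold changes nearest to 0. Gad1 had 303, 303 and 336 CPM in tTA::miR212 libraries, against 284, 310 and 318 CPM in controls (0.04, SE 0.08, interval -0.14 to 0.21). Cck had 356, 362 and 352 CPM in tTA::miR212 libraries, against 326, 352 and 355 CPM in controls (0.04, SE 0.08). Reln had 131, 146 and 163 CPM in tTA::miR212 libraries, against 156, 129 and 145 CPM in controls (0.03, SE 0.11). All 3 overlapped with controls.

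The miR-212 table lists 17 transcripts of the 7 markers, and those of 1 gene share reads. For Gad1 the full-length transcript of 17 exons had 395, 468 and 502 counts in tTA::miR212 libraries, against 386, 403 and 420 counts in controls. The 5 annotated transcripts that end inside the gene had log2 fold changes of -0.15 to -0.30, and the 2 that reach the 3′ end had 0.04 and 0.07. The shortest of them, of 7 exons and 1021 bases, had 101, 90 and 115 counts in tTA::miR212 libraries, against 104, 104 and 121 counts in controls. None of the 17 was called (edgeR over all transcripts, adjusted p = 0.926 or higher).

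In the authors' deposited table for tTA::miR212 no marker has a q-value under 0.05, and 0.0866% of genes do. Of the deposited tables only this one is labelled DESeq2, so its share may not compare directly with those of the others. Over the 7 markers 6 fold changes were above 0 and 1 below, with a median of 0.04 (log2), against 0.00 for all genes.

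**Figure D4:**
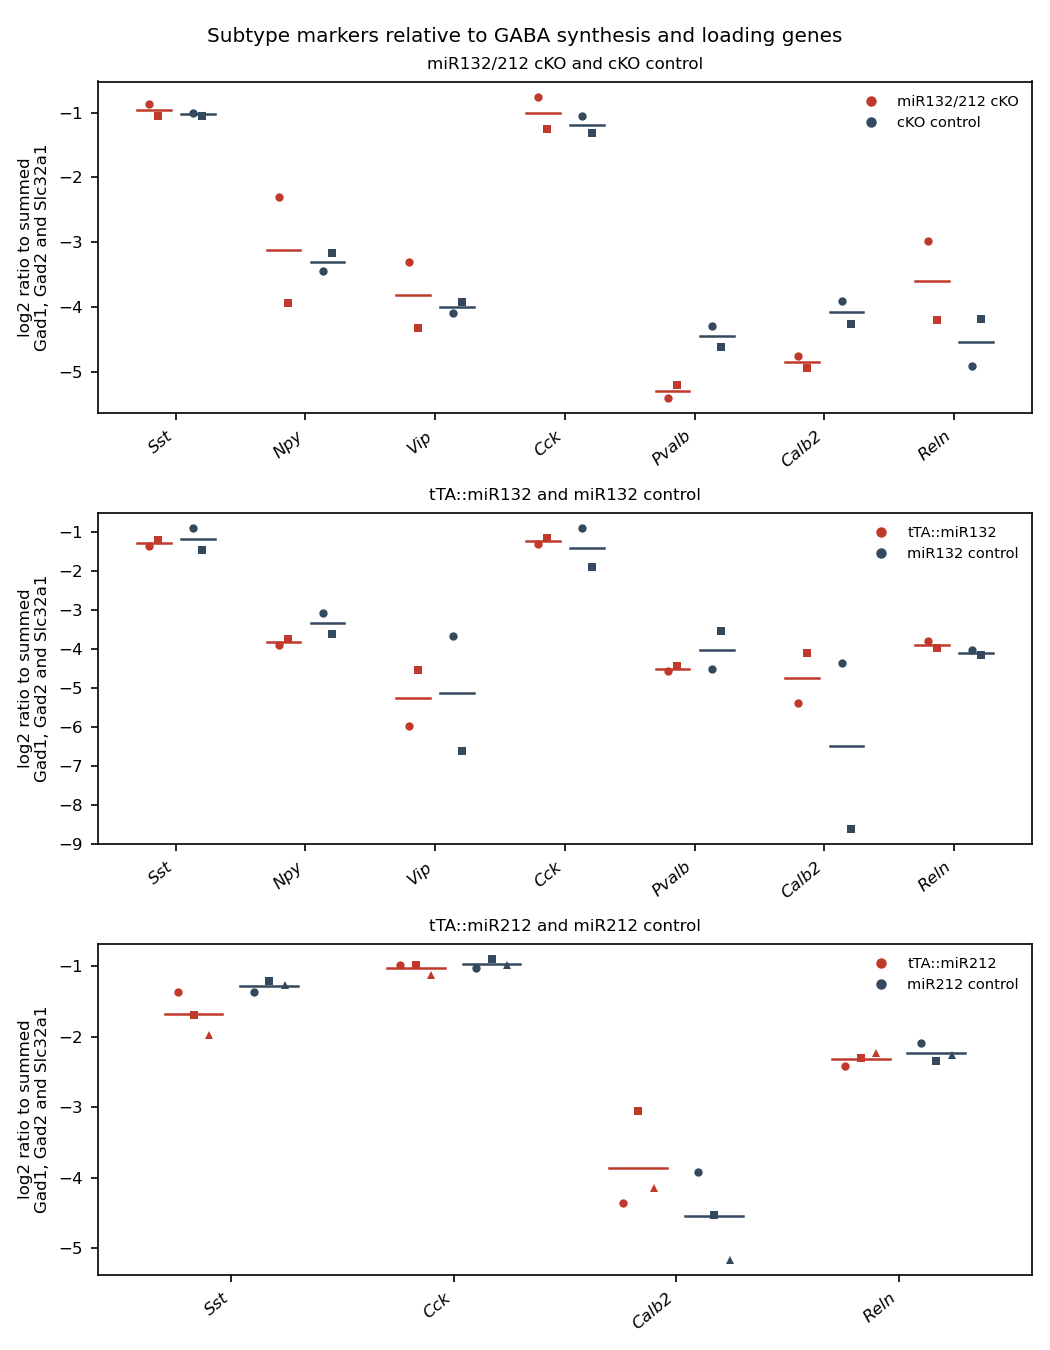
Log2 ratio (vertical axis) of each subtype marker to the summed counts of Gad1, Gad2 and Slc32a1 in the same library, red for cKO or tTA libraries and dark blue for controls; circles, squares and triangles are libraries 1, 2 and 3 and bars are means. In the lowest panel the Sst ratio averages -1.68 in tTA::miR212 libraries and -1.28 in controls.

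The ratios of the other subtype markers gave no further separation in the miR-212 table, where Cck differed by -0.07 and Reln by -0.09 (log2). In the deletion table Sst differed by 0.07, Cck by 0.18, Npy by 0.18, Vip by 0.19 and Reln by 0.95, all with overlapping groups. With Gad2 alone as the base the cKO libraries were above the controls without overlap for Sst (0.17), Cck (0.28) and Reln (1.05), while Npy and Vip still overlapped. By CPM the groups overlapped for Sst, Cck and Reln as well. Gad2 itself was high in control library 1, at 338 CPM, against 231 CPM in control library 2 and 256 and 224 CPM in cKO libraries. The gaps by this ratio were small for Reln and Sst. For Reln the ratios were -0.954 and -2.106 in cKO libraries, against -3.056 and -2.108 in controls. For Sst they were 1.158 and 1.050 in cKO libraries, against 0.845 and 1.028 in controls. Sst, Cck and Reln each had an exact permutation p of 0.333 (two-sided), the smallest possible. In the miR-132 table Npy differed by -0.49 and Reln by 0.21 (log2) with no overlap (exact permutation p = 0.333 each, two-sided, the smallest possible), and Calb2 differed by 1.75 through control library 2. Without control library 1 the Npy difference was -0.22. Without tTA::miR132 library 1 that of Reln was 0.11. With Gad2 alone as the base Reln overlapped with its controls and Pvalb, lower in tTA::miR132 libraries by this ratio (-0.47), did not. Its ratios were -2.83 and -2.79 in tTA::miR132 libraries, against -2.75 and -1.93 in controls. The share of all genes separated by such ratios was not computed.

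Over the 8 libraries of the deletion and miR-132 tables, Gad1 varied most like Gad2 and Sst among the markers, while Calb2 and Vip lay far from both Gad1 and Sst. Likeness was the root mean square difference of log2(CPM + 1), centred within each table, over 8962 genes with a mean of at least 10 CPM in both tables. The nearest genes to Sst were Dtnbp1 (0.0734), Cox8a (0.0738) and Adarb1 (0.0742), against a median of 0.465 over all genes. Gad1 stood 126th from Sst, Cck 334th, Gad2 493rd, and Calb2 7886th. The nearest to Gad1 were Serpine2 (0.0329), Atp5b (0.0656) and Rheb (0.0694), with a median of 0.460. Gad2 was 19th from Gad1 (0.103), Sst 138th, Vip 7162nd and Calb2 8081st. All genes of a library share its depth and preparation, and abundant genes vary less by counting alone.

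Genes that handle GABA downstream of its synthesis were also described, along with receptors of the marker peptides and of reelin, interneuron transcription factors and other interneuron genes. No gene of these lists passed the test over all genes in any comparison. In the deletion 13 of 15 GABA handling genes, 12 of 16 receptors, 12 of 17 transcription factors and 17 of 23 other genes were tested, with median log2 fold changes of 0.11, 0.11, 0.39 and -0.26. Only Nlgn2, which encodes an adhesion protein of inhibitory synapses, stood at an unadjusted p under 0.05, with 182 and 165 CPM in cKO libraries, against 78.0 and 116 CPM in controls (log2 fold change 0.86, SE 0.33, unadjusted p = 0.0385, adjusted p = 0.999 by edgeR). Both cKO libraries were above both controls. Among the next by p were Cnr1, the cannabinoid receptor of Cck basket cells (-0.39), the transcription factor gene Sp9 (1.87, SE 1.14), Dab1, the adaptor of reelin receptors (0.38), and the chromatin organizer gene Satb1 (0.36). Sp9 had 57.3 and 11.1 CPM in cKO libraries, against 5.41 and 13.9 CPM in controls, so only cKO library 1 stood above the controls.

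In tTA::miR132 libraries 14, 12, 15 and 16 genes of these lists were tested, with medians of -0.05, 0.15, -0.29 and -0.02 (log2 fold change), and 0 stood at an unadjusted p under 0.05. Among those with the smallest p were Satb1 (-0.49) and Abat, which breaks GABA down (0.41). Sp8 had 362 and 34 counts in tTA::miR132 libraries, against 0 and 7 counts in controls. Nkx2-1, which specifies interneurons of the medial ganglionic eminence, had 191 and 11 counts in tTA::miR132 libraries, against 0 and 0 counts in controls. For both genes nearly all counts came from tTA::miR132 library 1.

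In tTA::miR212 libraries 14, 4, 3 and 7 genes of the lists were tested, with medians of 0.05, 0.03, -0.02 and -0.04 (log2 fold change). The smallest p was that of Slc6a11, the astrocytic GABA transporter GAT3, with 188, 256 and 256 CPM in tTA::miR212 libraries, against 183, 172 and 188 CPM in controls. Libraries 2 and 3 stood above all controls and library 1 was level with the highest of them (0.36, SE 0.11, unadjusted p = 0.00484, adjusted p = 0.801 by edgeR). The astrocyte list summed to 1798, 1953 and 2181 CPM in tTA::miR212 libraries, against 1804, 1751 and 1577 CPM in controls, and its part in this value was not tested. The reelin receptor gene Lrp8 (0.20), Cnr1 (0.21), Dlx1, a transcription factor gene of interneurons (0.26), the GABA-B receptor gene Gabbr2 (0.12) and Slc12a5, the chloride exporter KCC2 (-0.09), came next.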

How the data were processed

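The authors deposited whole-number read counts per RefSeq gene (deletion and miR-132 tables) or Ensembl transcript (miR-212 table), with p-values and q-values of their own, per the file headers. Alignment used Bowtie 0.12.7 to mm9, per the design text. Cufflinks 1.2 is also listed among the upstream tools. Which tool made the whole-number counts is not given in the sources used here, nor is the filter behind the listed genes, so totals are not full depths. The 14 columns of normalized values were not used, and 1 repeated header line was dropped. Each table was fitted alone in R 4.3.3 with edgeR 4.0.16 (TMM, filterByExpr, robust quasi-likelihood fit, Benjamini-Hochberg, threshold 0.05), checked on simulated data. In the miR-212 table the transcript with the highest mean count stood for each symbol. Intervals are 95%. Ratios used counts plus 0.5 and exact permutation tests over libraries. Alternatives used DESeq2 1.42.0 and limma 3.58.1. Beside the markers, 6 list genes per comparison were named by smallest p, and 3 genes most like Sst and Gad1. Some genes that this rule selects are not reported here. The members, lists and tests were chosen with earlier results of these data known. Library numbers did not pair the libraries. Counts are of amplified reads without molecular identifiers, so Poisson intervals cover counting error only.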

Additional observations from a re-analysis of the deposited data

How the results depend on the processing

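The calls of markers were 0 in each of the 3 comparisons under each alternative that kept all libraries: DESeq2 size factors or raw totals in edgeR, no filter on low counts, DESeq2, limma-voom, the replicate block and, for miR-212, all transcripts. Over all genes, DESeq2 called 12 in the deletion and 43 in the miR-132 comparison, where limma-voom called 2 and edgeR 0. With library number as a replicate block, 1 gene was called for miR-132 and 1 for miR-212, and the fold change of Vip turned to 0.0068 for miR-132. Deviations of libraries with the same number correlated at 0.0181 in the deletion table, 0.00967 in the miR-132 table and -0.0756, 0.0208 and -0.0333 in the miR-212 table, so the numbers were not taken as pairs. The cause of these differences was not tested.

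With each library left out in turn, genes called ranged from 1 to 4527 in the deletion, from 0 to 111 for miR-132 and from 0 to 18 for miR-212, and markers called from 0 to 2 in the deletion. The largest counts came without cKO library 2, miR-132 control library 1 and tTA::miR212 library 1. Log2 fold changes that changed sign in the deletion were those of Cck (-0.30 to 0.42), Gad1 (-0.23 to 0.058), Gad2 (-0.47 to 0.080), Npy (-0.84 to 1.00), Slc32a1 (-0.20 to 0.63), Sst (-0.23 to 0.16) and Vip (-0.53 to 0.71). For miR-132 they were those of Calb2 (-0.0022 to 3.98), Cck (-0.031 to 0.68), Gad1 (-0.041 to 0.26), Gad2 (-0.068 to 0.36), Pvalb (-0.95 to 0.31), Sst (-0.089 to 0.19) and Vip (-1.21 to 1.47). For miR-212 only Cck (-0.0016 to 0.068), Gad1 (-0.019 to 0.074) and Reln (-0.059 to 0.093) changed sign. Log2 ratios to the pan-GABAergic sum changed sign in the deletion for Cck (-0.068 to 0.44), Npy (-0.64 to 0.99), Sst (-0.017 to 0.16) and Vip (-0.32 to 0.71). For miR-132 they did for Calb2 (-0.37 to 3.88), Cck (-0.33 to 0.68), Pvalb (-0.95 to 0.0077), Sst (-0.39 to 0.19) and Vip (-1.60 to 1.36). None of the 4 ratios in the miR-212 comparison did. Where 1 library is left in a group, it is assumed to vary like the others. At the spread of the deletion and miR-132 tables, intervals of single markers reach beyond 2-fold for Calb2, Pvalb, Npy, Vip, Reln and Slc32a1, so a change of that size in these genes is within what the data allow.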
